A study of Mus musculus with 3 samples.

Results

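The collagen chains are the protein products of the genes whose symbols follow the pattern Col, a type number, a and a chain number. All symbols of that form in the shared gene list of the series were taken, which gave 44 of 22100 symbols. They were grouped by textbook family into 11 fibrillar chains, 6 collagen IV chains of basement membranes, 6 collagen VI chains, 9 fibril-associated (FACIT) chains, 2 multiplexins, 4 membrane-spanning chains and 6 others. No measured value entered this choice, and all 44 chains had at least 1 count in each library.

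A collagen molecule is built in the endoplasmic reticulum from alpha chains that wind into a triple helix, and which chains are made in a cell limits which molecules it can secrete. Fibrillar collagens form the load-bearing fibres of connective tissue, collagen IV forms the sheet-like network of basement membranes under epithelium and around muscle cells, vessels and glia, and collagen VI forms beaded filaments that run between fibres and basement membranes. In the gut wall fibroblasts are known as the main source of fibrillar collagen, while smooth muscle cells, pericytes and glia border on basement membranes.

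Small intestine of wild-type, untreated mice was profiled at 3 stages, the embryonic stages E15.5 and E17.5 and the postnatal stage P7 (E and P count days of gestation and days after birth), with 1 droplet-based single-cell library per stage and no other genotype or treatment. The labels' protocols say that the epithelial and the mesenchymal fraction were joined and that viable cells were sorted as Epcam-positive, or as negative for Epcam, CD31 and CD45, so the sort set the share of epithelium and was meant to leave out endothelium and leukocytes. Nothing used here gives the strain of the mice, their sex or how many animals a library holds. Each molecule was counted once by its unique molecular identifier (UMI) at the 3′ end of the transcript, and levels below are UMIs of a gene per 1000000 UMIs of a cell class (CPM), which are not scaled to transcript length. Where levels of different chains are set beside each other, they are on this 3′ count scale and carry any difference in capture between the genes. With 1 library per stage there is no replicate and no test between stages. Intervals in brackets are at 95% and cover counting error only, and log2 ratios are later stage over earlier stage.

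At E15.5 the library had 93501273 UMIs in 8447 cells, at E17.5 it had 94023160 in 11598, and at P7 116038115 in 8391. Cells were put into classes by marker genes, none of them a collagen, and each class name stands for cells that are like that type. The subepithelial gate rests on Bmp3, Bmp5, Nrg1, Pdgfra and similar genes, the mucosal gate on Adamdec1, Ccl11, Procr and Fgfr2, the deep gate on Cxcl13, Ogn and Angptl1, and the adventitial gate on Cd34, Clec3b, Mfap5, Pi16, Dpp4 and Ly6a. A further fibroblast class is called by Kcnn3, one of its gate genes, because at E15.5 its 10 leading genes held 4 markers of other classes against 1 of its own. The 4 were the pericyte markers Kcnj8, Rgs5 and Abcc9, and Dlk1. At E17.5 Rgs5 and Abcc9 were still among its 10 leading genes, while at P7 these held 5 of its own markers and 0 of other classes. The cells in this gate thus differed between the stages. Markers of other classes were also among the leading genes of 3 more fibroblast classes, each with more of its own. In mucosal fibroblasts they were Bmp3 and Sfrp1 at E15.5, 2 against 3 of its own, and Sfrp1 at P7, 1 against 2. In subepithelial fibroblasts it was Adamdec1 at both embryonic stages, and in adventitial fibroblasts Dlk1 at E17.5. Cxcl13 led the deep class at E15.5 and E17.5 but was not among its 10 leading genes at P7, where Mgp, Dcn, Dpt, Mfap4 and Angptl1 led. Cells that passed the fibroblast gate but no layer gate count among all fibroblasts and are not described as a class, nor are neurons, interstitial cells of Cajal and unassigned muscle, except where named. All fibroblasts together were 3305 cells at E15.5, 4807 at E17.5 and 976 at P7, of which 246, 300 and 5 were subepithelial, so no subepithelial values are given at P7. The adventitial class held 87 cells at P7, 48 at E17.5 and 0 at E15.5. The median depth of a fibroblast was 7428 UMIs at E15.5, 5226 at E17.5 and 4599 at P7. In the mucosal class 41.5%, 28.9% and 10.7% of cells lay near a gate limit, in stage order, and in the deep class 23.5%, 8.64% and 16.0%. Of the fibroblasts, 447 cells at E15.5, 2068 at E17.5 and 131 at P7 held UMIs of at least 2 of the chemokines Ccl2, Cxcl1 and Cxcl10, which dissociation is known to induce. The 3 libraries come with 1 and the same list of 8447 barcodes, a number that matches the cells of E15.5 alone, so barcodes shared between libraries could not be counted.

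Collagen transcripts made up a growing part of fibroblast RNA over the 3 stages, and how much depended on the layer. The share of all fibroblast UMIs that came from the 44 chains was 1.07% at E15.5, 1.82% at E17.5 and 3.58% at P7. In mucosal fibroblasts the share was 0.817% at E15.5, 1.27% at E17.5 and 2.14% at P7. In deep fibroblasts it was 1.49% at E15.5, 2.65% at E17.5 and 4.35% at P7. In both layers the share stepped up at each stage, and at every stage it was higher in the deep than in the mucosal class, with counting intervals that did not overlap. Adventitial fibroblasts, which are known from the sheaths of vessels, reached the highest share of any class shown, 6.17% at P7 and 1.86% at E17.5. Subepithelial fibroblasts, named after the Pdgfra-high cells known from directly under the epithelium, held 1.31% at E17.5 and 1.04% at E15.5. Kcnn3 fibroblasts held 0.781% at E15.5, 0.925% at E17.5 and 2.84% at P7.

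Outside the fibroblasts the shares were smaller. Visceral muscle, the contractile wall muscle gated on Actg2, held 0.395% at E15.5, 0.424% at E17.5 and 0.524% at P7. An Eln-high, Actg2-low muscle class, called elastin-rich below, was present in numbers only at P7, with 296 cells and a collagen share of 0.588%. Pericytes, which wrap small vessels, held 0.656% at E15.5, 0.880% at E17.5 and 1.04% at P7. Glia held 0.0988% at E15.5, 0.140% at E17.5 and 0.497% at P7, from 59 cells at P7. Epithelial cells held 0.0184% at E15.5, 0.0247% at E17.5 and 0.00761% at P7, so the collagen share of epithelium was lower than that of every other class in the plot of shares at all 3 stages.

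**Figure D1:**
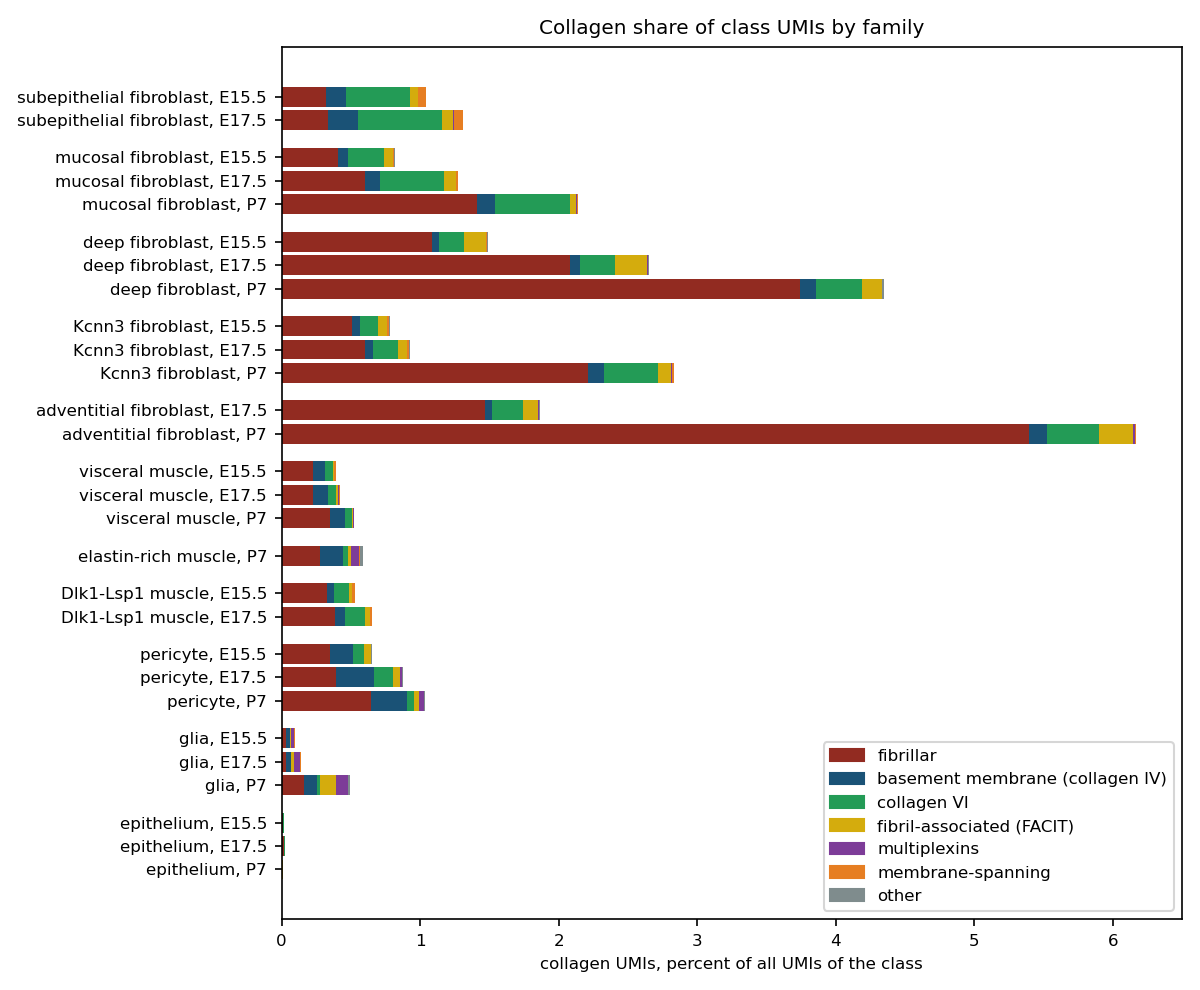
Collagen UMIs as a percent of all UMIs of a class (x axis), by class and stage (y axis), with bars stacked by collagen family and no error bars. The fibrillar part is the longest in deep and adventitial fibroblasts at P7, where the whole bar reaches 4.35% and 6.17%, and the collagen VI part is the longest in subepithelial fibroblasts at E17.5.

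The make-up of the collagen RNA differed by class as well as its amount. Of the collagen UMIs of all fibroblasts, the part in fibrillar chains was 62.8% at E15.5, 68.6% at E17.5 and 80.9% at P7. In the deep class that part was 72.8% at E15.5, 78.7% at E17.5 and 86.2% at P7, and in the mucosal class 49.8% at E15.5, 47.3% at E17.5 and 65.8% at P7. Subepithelial fibroblasts stood apart from both, with 25.7% at E17.5 and 30.9% at E15.5 in fibrillar chains and 46.1% at E17.5 and 43.95% at E15.5 in collagen VI. The collagen VI part was 32.5% at E15.5, 36.7% at E17.5 and 25.4% at P7 in mucosal and 12.1% at E15.5, 9.45% at E17.5 and 7.54% at P7 in deep fibroblasts. The collagen IV part in pericytes was 25.7% at E15.5, 30.9% at E17.5 and 25.3% at P7, and in visceral muscle it was 20.9% at E15.5, 25.9% at E17.5 and 20.2% at P7. The multiplexin part in glia was 19.95% at E15.5, 27.7% at E17.5 and 16.5% at P7. At both embryonic stages the collagen VI part was thus largest in the subepithelial class, smaller in the mucosal class and smallest in the deep class, and the fibrillar part had the reverse order.

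Among the fibrillar chains, Col1a1 and Col1a2, the 2 chains of type I collagen, and Col3a1, the single chain of type III collagen, were the most abundant over all fibroblasts. In the deep class Col1a1 had 2394 CPM at E15.5, 5511 at E17.5 and 8375 at P7, and Col1a2 had 2563 CPM at E15.5, 5663 at E17.5 and 10370 at P7. Col3a1 had 4987 CPM at E15.5, 8443 at E17.5 and 17050 at P7 there. Each of the 3 was higher at each later stage in the deep class. In mucosal fibroblasts Col3a1 had 1613 CPM at E15.5, 1982 at E17.5 and 6292 at P7, and Col1a1 had 870 CPM at E15.5, 1645 at E17.5 and 3073 at P7. Subepithelial fibroblasts held Col3a1 at 1057 CPM at E17.5 and 999 at E15.5 and Col1a1 at 465 CPM at E17.5 and 444 at E15.5, values with overlapping intervals between the stages. The highest value of any chain in any class was that of Col3a1 in adventitial fibroblasts, with 24940 CPM at P7 and 6367 at E17.5. Col3a1 was the most abundant chain in every class and stage described except glia, where Col18a1 was, pericytes at E17.5, where Col4a1 was, the subepithelial class, where collagen VI chains were, and the Dlk1-Lsp1 class at E17.5, where Col1a1 was.

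The steps between stages were counted with a fixed rule of size, since no test was possible: a chain counts as higher or lower past 2-fold, with at least 20 UMIs in the higher library. At the step of E17.5 over E15.5, 35 of the 44 chains had enough UMIs in all fibroblasts, and of these 9 were higher and 0 lower, where 8.02% of all 13757 genes counted were higher and 2.89% lower. The median log2 ratio of the 35 chains was 0.54, against -0.09 over all genes counted. In deep fibroblasts 7 of 32 chains were higher and 2 lower, against 6.39% and 3.34% of all genes. In mucosal fibroblasts 4 of 30 were higher and 0 lower, against 6.51% and 3.55%. Subepithelial fibroblasts had 3 of 25 higher and 1 lower, against 5.4% and 4.41%. Type I collagen moved past 2-fold in the deep class, with a log2 ratio of 1.20 (1.18 to 1.23) for Col1a1 and 1.14 (1.12 to 1.17) for Col1a2. It stayed within 2-fold in the mucosal class, at 0.92 (0.87 to 0.97) for Col1a1, and in the subepithelial class, at 0.07 (-0.10 to 0.23). With the mucosal, deep and Kcnn3 classes weighted equally, a choice made after the data were seen, the all-fibroblast log2 ratio of Col1a1 was 0.97 and that of Col1a2 0.91.

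At the step of P7 over E17.5, which shares the E17.5 library with the first step, 7 of 35 chains were higher and 10 lower in all fibroblasts, against 10.8% and 5.94% of 13578 genes counted, and the median log2 ratio was 0.40 against 0.14. The mix of classes differed at this step, as subepithelial cells were 5 of 976 fibroblasts at P7 against 300 of 4807 at E17.5. With equal weights of the 3 classes the counts were 11 higher and 4 lower. In deep fibroblasts 8 of 31 chains were higher and 7 lower, against 9.4% and 6.97% of all genes. In mucosal fibroblasts 6 of 30 were higher and 7 lower, against 9.57% and 5.19%, and with median-ratio scaling 3 were higher. In adventitial fibroblasts 13 of 17 were higher and 0 lower, against 17.0% and 4.58%, with a median of 1.24 against 0.17 over all genes counted there. In Kcnn3 fibroblasts, whose leading genes held pericyte markers at E17.5 but not at P7, 14 of 28 were higher and 1 lower, against 13.5% and 8.3%. Col3a1 was higher at P7 in all 4 of these classes, with log2 ratios of 1.67 (1.63 to 1.70) in mucosal, 1.01 (0.99 to 1.03) in deep, 1.96 (1.90 to 2.01) in Kcnn3 and 1.97 (1.90 to 2.04) in adventitial fibroblasts. Haemoglobin UMIs were 0.0373% of the P7 library and 1.34% of the E17.5 library, and counting without mitochondrial and haemoglobin genes left every call count in fibroblasts within 1.5 times.

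The type V chains, which are known to set the diameter of type I fibres, differed in timing. Col5a1 had 410 CPM at E15.5, 579 at E17.5 and 746 at P7 in the deep class, and Col5a2 had 372 CPM at E15.5, 515 at E17.5 and 784 at P7, both within 2-fold at each step. Col5a3, the least common type V chain, had 1.75 CPM at E15.5, 12.1 at E17.5 and 76.8 at P7 over all fibroblasts, with log2 ratios of 2.79 (2.35 to 3.26) and 2.67 (2.45 to 2.89) at the 2 steps. Adventitial fibroblasts carried the highest Col5a3 level of any class, 344 CPM at P7 and 236 at E17.5, against 20.1 CPM in mucosal and 53.3 CPM in deep fibroblasts at P7. Col11a1, a chain of the minor fibril collagen XI, was lower at P7 in fibroblasts, with 37.3 CPM at E15.5, 32.1 at E17.5 and 7.63 at P7 and a log2 ratio of -2.07 (-2.60 to -1.59) at the second step. Col24a1 was highest at both embryonic stages in subepithelial fibroblasts, where it rose to 76.0 CPM at E17.5, against 31.7 CPM at E15.5. Over all fibroblasts it had 9.13 CPM at E15.5, 17.9 at E17.5 and 8.27 at P7. Col27a1 had its highest fetal levels in visceral muscle, 156 CPM at E15.5, 198 at E17.5 and 160 at P7, against 43.7 CPM at E15.5, 49.8 at E17.5 and 59.0 at P7 over all fibroblasts. In mucosal fibroblasts Col27a1 rose to 78.5 CPM at P7, against 36.2 CPM at E17.5. The other 2 fibrillar chains were close to absent: Col11a2 stayed at or under 1.54 CPM in every class described, and Col2a1, the cartilage collagen, reached 14.5 CPM in glia at E15.5 and at most 0.848 CPM in the other classes described.

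**Figure D2:**
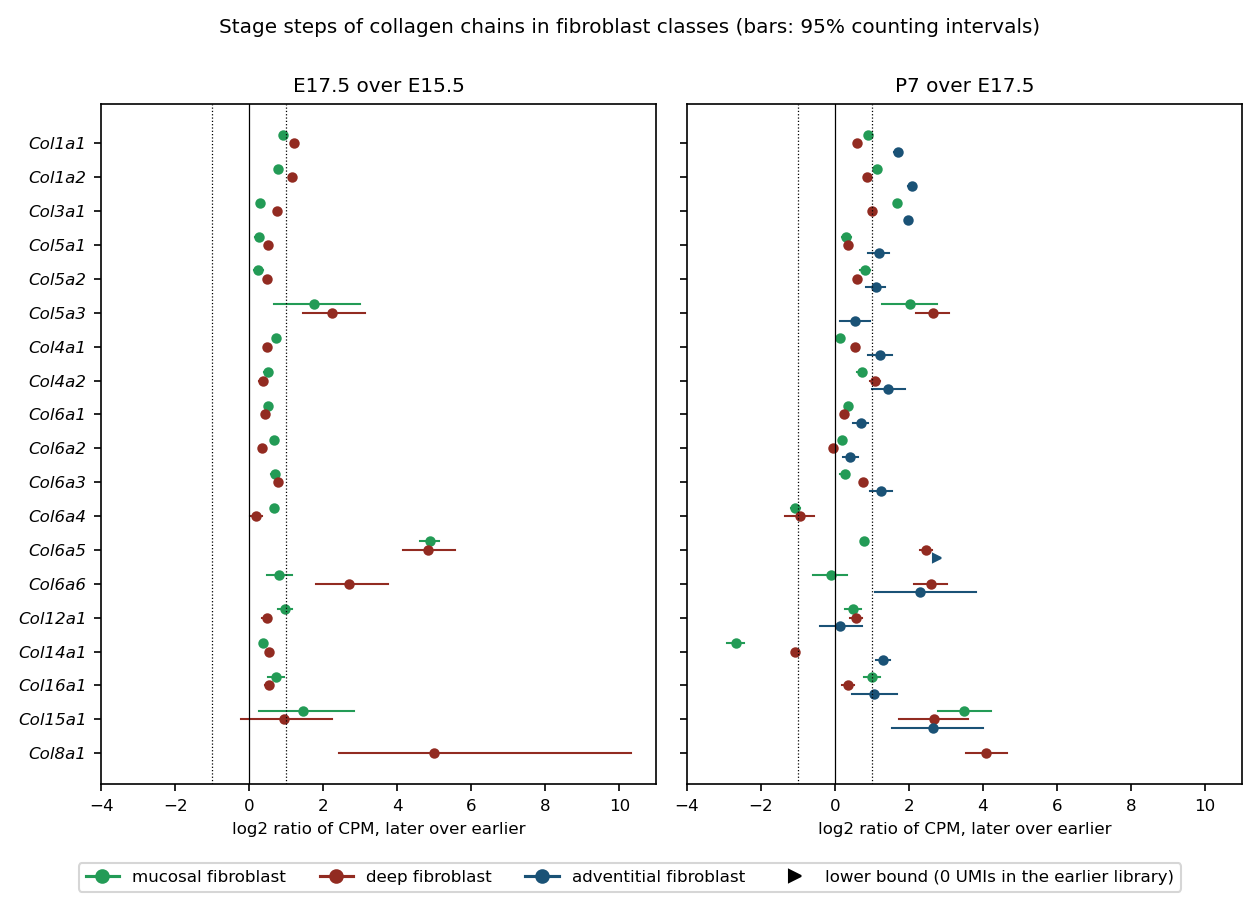
Log2 ratio of CPM, later over earlier stage (x axis), for named chains (y axis) in mucosal, deep and adventitial fibroblasts, with 95% counting intervals as bars, dotted lines at 2-fold and a triangle for a lower bound where the earlier library held 0 UMIs. Col6a5 lies at 4.87 in mucosal and 4.82 in deep fibroblasts at the first step, and at the second step Col14a1 lies at -2.68 in mucosal, -1.06 in deep and 1.30 in adventitial fibroblasts.

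Of the 6 collagen IV chains, Col4a1 and Col4a2, which form the common network of all basement membranes, were found in every mesenchymal class. Pericytes had the highest level of both at each stage, with Col4a1 at 1188 CPM at E15.5, 1975 at E17.5 and 1551 at P7 and Col4a2 at 490 CPM at E15.5, 729 at E17.5 and 1013 at P7. Visceral muscle had Col4a1 at 554 CPM at E15.5, 747 at E17.5 and 624 at P7. Mucosal fibroblasts had 460 CPM at E15.5, 764 at E17.5 and 847 at P7, deep fibroblasts 360 CPM at E15.5, 505 at E17.5 and 738 at P7, and subepithelial fibroblasts 1150 CPM at E17.5 and 739 at E15.5. Within the fibroblasts, the subepithelial class thus held the most Col4a1 at both embryonic stages. Elastin-rich muscle had Col4a1 at 939 CPM and Col4a2 at 646 CPM at P7. Col4a1 did not move past 2-fold at either step in mucosal or deep fibroblasts, while Col4a2 rose past it at the second step in deep fibroblasts, with a log2 ratio of 1.09 (0.96 to 1.21). In the mucosal class the Col4a2 ratio at that step was 0.73 (0.61 to 0.85).

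Col4a1 and Col4a2 lie head to head, at chr8:11198423-11312826 on the minus strand and chr8:11312805-11449287 on the plus strand in GRCm38, and are known to share a bidirectional promoter. Their promoter windows, 250 bases before to 50 after the start in RefSeq on GRCm38.p6, overlap by 78 bases and are shown because the ratio of the 2 chains is given by class below. The Col4a1 window is chr8:11312777-11313076 on the minus strand and the Col4a2 window is chr8:11312555-11312854 on the plus strand, each printed 5′ to 3′ with matches on either strand in capitals. The motifs searched were CCAAT (read as ATTGG on the other strand), the GC box core GGGCGG (read as CCGCCC) and the TATA box core TATAAA (read as TTTATA).
Col4a1: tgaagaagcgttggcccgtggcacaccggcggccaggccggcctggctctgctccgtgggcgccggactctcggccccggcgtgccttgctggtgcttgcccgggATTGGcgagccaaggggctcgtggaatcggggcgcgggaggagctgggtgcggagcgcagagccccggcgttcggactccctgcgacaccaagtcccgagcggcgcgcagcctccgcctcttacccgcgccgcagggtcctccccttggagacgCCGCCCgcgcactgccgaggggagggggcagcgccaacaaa
Col4a2: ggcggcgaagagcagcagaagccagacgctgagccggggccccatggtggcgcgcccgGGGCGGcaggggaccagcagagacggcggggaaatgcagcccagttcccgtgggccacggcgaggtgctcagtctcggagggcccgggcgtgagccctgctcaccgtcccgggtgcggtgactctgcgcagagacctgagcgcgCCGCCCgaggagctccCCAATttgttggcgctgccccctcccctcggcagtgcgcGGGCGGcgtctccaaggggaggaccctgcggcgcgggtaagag
The Col4a1 window held 1 CCAAT and 1 GGGCGG match, the Col4a2 window 1 and 3, and neither held TATAAA. The GGGCGG match of the Col4a1 window lies in the overlap and is the same site as 1 of the Col4a2 matches, read on the other strand. Of all 32851 promoter windows in the table, 37.4% held CCAAT, 35.7% GGGCGG and 13.6% TATAAA on either strand, and of the 38 windows that matched 35 of the 44 chains, 34.2%, 60.5% and 13.2% did. A match is a description of these letters and not a binding site. The GC content was 74.0% and 73.7% in these windows, against a median of 52.7% over all windows.

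The X-linked pair Col4a5 and Col4a6 is known from the basement membranes of smooth muscle and some epithelia. Here both were highest in the subepithelial class at both embryonic stages. Subepithelial fibroblasts had Col4a5 at 381 CPM at E17.5 and 290 at E15.5 and Col4a6 at 97.5 CPM at E17.5 and 52.1 at E15.5. Col4a5 was 41.0 CPM at E15.5, 31.1 at E17.5 and 5.31 at P7 in the mucosal class and 6.38 CPM at E15.5, 1.64 at E17.5 and 0 at P7 in the deep class. The lower level in mucosal fibroblasts at P7, a log2 ratio of -2.55 (-3.70 to -1.60), turned to 0.40 when classes were taken from clusters in place of cell gates, and that of Col4a6, -2.52 (-5.61 to -0.58), turned to 0.083. At P7 the highest Col4a5 level was in elastin-rich muscle, 103 CPM (86.6 to 122), and visceral muscle had 14.0 CPM at E15.5, 12.2 at E17.5 and 10.1 at P7. The other pair, Col4a3 and Col4a4, known from kidney and lung, was near the limit of detection: Col4a3 reached at most 4.61 CPM, in subepithelial fibroblasts, and Col4a4 12.4 CPM, from 2 UMIs in P7 glia.

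Collagen VI held both steady and strongly changing chains in fibroblasts. Col6a1 and Col6a2, which pair with 1 long chain in each molecule, were abundant in every fibroblast class and moved little. Col6a1 had 1048 CPM at E15.5, 1478 at E17.5 and 1899 at P7 in mucosal fibroblasts and 780 CPM at E15.5, 1052 at E17.5 and 1258 at P7 in deep fibroblasts. Col6a2 had 812 CPM at E15.5, 1299 at E17.5 and 1495 at P7 in the mucosal class. Neither passed 2-fold at either step in the mucosal or deep class, or at the second step, the one with values, in the adventitial class. The long chains that can take the remaining place, Col6a3, Col6a4, Col6a5 and Col6a6, differed by layer and by stage.

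Col6a3, the classical long chain, had 244 CPM at E15.5, 414 at E17.5 and 708 at P7 in deep and 256 CPM at E15.5, 411 at E17.5 and 493 at P7 in mucosal fibroblasts. Kcnn3 fibroblasts had 1429 CPM at P7, the highest Col6a3 level of any class. Col6a4 was highest in the subepithelial class at both embryonic stages, with 1843 CPM at E17.5 and 1385 at E15.5, and in the mucosal class at P7. In mucosal fibroblasts it had 494 CPM at E15.5, 782 at E17.5 and 372 at P7. In deep fibroblasts it had 65.0 CPM at E15.5, 74.2 at E17.5 and 38.6 at P7. At E17.5 it was the most abundant chain of all 44 in the subepithelial class, while Col6a1 was at E15.5, with 1508 CPM. Col6a4 fell in mucosal fibroblasts at the second step, with a log2 ratio of -1.07 (-1.20 to -0.95). In Kcnn3 fibroblasts it rose at that step, to 61.6 CPM at P7, against 19.8 CPM at E17.5. Col6a4 had 0 UMIs in P7 visceral muscle, elastin-rich muscle, pericytes and glia, which allows up to 6.08, 2.26, 5.01 and 18.7 CPM.

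Col6a5 had the largest first step of the 35 chains counted in all fibroblasts. It had 9.51 CPM at E15.5, 241 at E17.5 and 608 at P7 over all fibroblasts and 22.7 CPM at E15.5, 664 at E17.5 and 1154 at P7 in the mucosal class. In deep fibroblasts it had 2.29 CPM at E15.5, 64.3 at E17.5 and 356 at P7, and in subepithelial fibroblasts 130 CPM at E17.5 and 12.7 at E15.5. The log2 ratio of E17.5 over E15.5 was 4.87 (4.63 to 5.12) in mucosal, 4.82 (4.16 to 5.56) in deep and 3.37 (2.66 to 4.16) in subepithelial fibroblasts. At the second step it rose further in the deep class, 2.47 (2.30 to 2.63), and stayed within 2-fold in the mucosal class, 0.80 (0.72 to 0.87). Leaving out the chemokine-high cells, the mucosal first step was 4.82. In adventitial fibroblasts Col6a5 had 36 UMIs at P7, 66.3 CPM, against 0 UMIs in 48 cells at E17.5.

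The rise of Col6a5 was also one in the share of cells. With each cell thinned to 3000 UMIs, the share of mucosal fibroblasts with a Col6a5 UMI was 6.24% at E15.5, 67.7% at E17.5 and 88.2% at P7, and before thinning it was 13.2%, 77.5% and 91.8%, in the same order. In deep fibroblasts the thinned share was 0.589% at E15.5, 9.69% at E17.5 and 42.8% at P7. Epithelial cells, which should lack the gene, had a thinned share of 0.153% at E15.5, 1.16% at E17.5 and 0.256% at P7. Shallower cells were left out of the thinning, 9 of 730 mucosal cells at E15.5, 125 of 1208 at E17.5 and 43 of 364 at P7. Median depths before thinning were 7640, 5158 and 4418 UMIs in mucosal fibroblasts and 21034, 15744 and 15671 UMIs in epithelial cells. For Col6a4 the thinned mucosal share was 64.9% at E15.5, 77.6% at E17.5 and 53.3% at P7, so at P7 fewer mucosal cells held Col6a4 than Col6a5, the reverse of E15.5.

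Col6a6, the last long chain, had 1.32 CPM at E15.5, 8.63 at E17.5 and 52.0 at P7 in deep fibroblasts, with log2 ratios of 2.71 (1.80 to 3.76) and 2.59 (2.14 to 3.04) at the 2 steps, and 18.3 CPM at E15.5, 32.0 at E17.5 and 29.5 at P7 in mucosal fibroblasts. In the adventitial class it had 97.6 CPM at P7 and 19.7 at E17.5. The 3 genes Col6a4, Col6a5 and Col6a6 lie in a row on the minus strand of mouse chromosome 9, at chr9:105989454-106096783, chr9:105856078-105960643 and chr9:105687809-105828160, with 28811 bases between Col6a4 and Col6a5. The promoter windows of Col6a4 and Col6a5, whose order of levels in mucosal fibroblasts differed between the stages, are chr9:106096642-106096941 for Col6a4 and chr9:105960594-105960893 for Col6a5, both on the minus strand, from RefSeq on GRCm38.p6 with the same motif matches in capitals.
Col6a4: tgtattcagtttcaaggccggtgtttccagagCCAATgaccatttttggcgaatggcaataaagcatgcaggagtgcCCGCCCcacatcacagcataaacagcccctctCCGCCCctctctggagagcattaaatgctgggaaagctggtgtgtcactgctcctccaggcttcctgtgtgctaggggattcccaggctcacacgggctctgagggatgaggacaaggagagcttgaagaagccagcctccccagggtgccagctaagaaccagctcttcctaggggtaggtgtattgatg
Col6a5: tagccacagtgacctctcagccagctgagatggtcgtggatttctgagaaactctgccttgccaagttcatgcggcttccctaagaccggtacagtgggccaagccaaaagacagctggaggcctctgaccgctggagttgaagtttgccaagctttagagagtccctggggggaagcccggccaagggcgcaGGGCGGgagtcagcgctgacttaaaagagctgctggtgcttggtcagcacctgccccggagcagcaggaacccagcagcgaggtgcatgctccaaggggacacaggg
Col6a4 held 1 CCAAT and 2 GGGCGG matches, Col6a5 0 and 1, and neither held TATAAA. Their GC content was 55.0% and 60.0%.

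**Figure D3:**
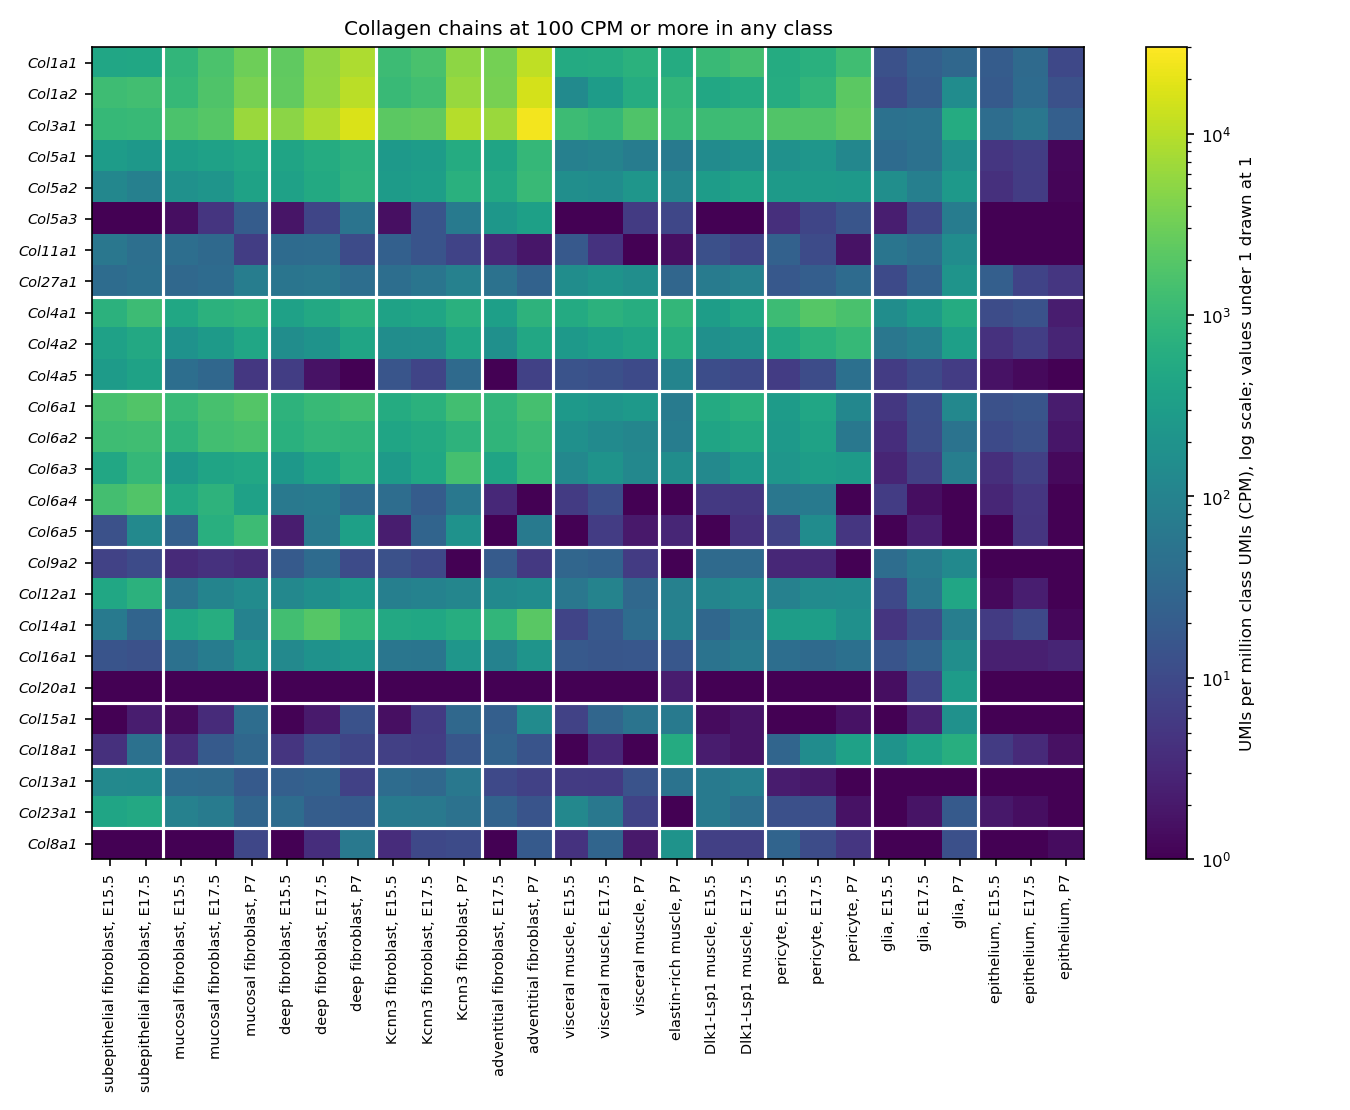
Heat map of CPM on a log colour scale for the chains with 100 CPM or more in a shown class (y axis, grouped by family) in each class and stage (x axis), with values under 1 CPM drawn at 1. Col6a4 is bright in subepithelial and mucosal fibroblasts, Col14a1 in deep and adventitial fibroblasts, and Col18a1 in glia, pericytes and elastin-rich muscle.

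The fibril-associated chains, which coat fibril surfaces, split by layer. Col14a1 was highest in the deep class at both embryonic stages and in the adventitial class at P7. It had 1340 CPM at E15.5, 1943 at E17.5 and 930 at P7 in deep and 2137 CPM at P7 and 868 at E17.5 in adventitial fibroblasts. Subepithelial fibroblasts had 27.6 CPM at E17.5 and 71.0 at E15.5. Kcnn3 fibroblasts had 500 CPM at E15.5, and pericytes 308 CPM at E15.5 and 322 at E17.5. At P7 it fell in mucosal fibroblasts, 96.2 CPM against 616 CPM at E17.5, and in deep fibroblasts, and it rose in adventitial fibroblasts, with log2 ratios of -2.68 (-2.91 to -2.45), -1.06 (-1.14 to -0.98) and 1.30 (1.11 to 1.497). Col12a1, a chain of tissues under tension, was highest in subepithelial fibroblasts, 762 CPM at E17.5 and 470 at E15.5, against 124 CPM at E15.5, 172 at E17.5 and 254 at P7 in deep fibroblasts. Col14a1 and Col12a1 thus had opposite orders between the subepithelial and the deep class at both embryonic stages. Col16a1 had 130 CPM at E15.5, 188 at E17.5 and 240 at P7 in deep and 46.3 CPM at E15.5, 76.7 at E17.5 and 154 at P7 in mucosal fibroblasts.

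The remaining FACIT chains were low in fibroblasts. Col9a2, a type IX chain, had 18.9 CPM at E15.5, 36.9 at E17.5 and 10.7 at P7 in deep fibroblasts, with a log2 ratio of -1.79 (-2.61 to -1.07) at the second step. Its highest levels were in glia, 40.6 CPM at E15.5, 71.8 at E17.5 and 131 at P7. Col9a3 was seen mainly in glia, with 38.2 CPM at E15.5, 34.3 at E17.5 and 43.6 at P7, and stayed at or under 5.35 CPM in every fibroblast, muscle and pericyte class. Col9a1 reached 6.93 CPM in visceral muscle at E15.5, against 1.66 CPM at E17.5. Col22a1, known from tissue junctions, had 17.7 CPM at E17.5 and 26.7 at E15.5 in subepithelial fibroblasts and fell in deep fibroblasts at P7, with 3.997 CPM against 14.1 CPM at E17.5. Col20a1 was found in glia at P7, with 1.45 CPM at E15.5, 8.31 at E17.5 and 286 at P7, and was at or under 2.26 CPM in the fibroblast, muscle, pericyte and epithelial classes described. Col19a1 reached at most 21.1 CPM, in elastin-rich muscle.

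The 2 multiplexins are basement membrane proteoglycans, and Col18a1 is the source of the fragment endostatin. Col18a1 was low in fibroblasts, with 4.01 CPM at E15.5, 14.4 at E17.5 and 19.1 at P7, and high in glia, with 197 CPM at E15.5, 385 at E17.5 and 641 at P7, where it was the most abundant of the 44 chains at every stage. Pericytes had 29.4 CPM at E15.5, 149 at E17.5 and 363 at P7, and rose at both steps, with log2 ratios of 2.34 (1.96 to 2.74) and 1.29 (1.04 to 1.53). Elastin-rich muscle had 558 CPM (518 to 600) at P7, while visceral muscle of the same library had 0 UMIs in 68 cells, which allows up to 6.08 CPM. The intervals of these muscle kinds did not overlap. Visceral muscle had 3.31 CPM at E17.5 and 0.433 CPM at E15.5. Col15a1 had 1.15 CPM at E15.5, 3.85 at E17.5 and 47.5 at P7 in all fibroblasts, with log2 ratios of 1.74 (1.15 to 2.37) and 3.63 (3.28 to 3.98). In mucosal fibroblasts it had 1.31 CPM at E15.5, 3.60 at E17.5 and 40.1 at P7, and in visceral muscle 7.65 CPM at E15.5, 29.6 at E17.5 and 52.7 at P7. Adventitial fibroblasts reached 144 CPM at P7, against 22.9 CPM at E17.5.

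Of the membrane-spanning chains, Col23a1 and Col13a1 were highest in the subepithelial class among the fibroblasts at both embryonic stages, and that class has no value at P7. At P7 the highest fibroblast class was Kcnn3, with 48.2 CPM of Col23a1 and 61.6 CPM of Col13a1, against 63.3 CPM of Col23a1 and 33.0 CPM of Col13a1 in the same class at E17.5. Col23a1 had 508 CPM at E17.5 and 425 at E15.5 in subepithelial, 91.6 CPM at E15.5, 72.0 at E17.5 and 28.9 at P7 in mucosal and 38.9 CPM at E15.5, 21.2 at E17.5 and 18.7 at P7 in deep fibroblasts. Visceral muscle lost Col23a1 over the 3 stages, with 123 CPM at E15.5, 61.4 at E17.5 and 8.10 at P7 and log2 ratios of -1.001 (-1.15 to -0.85) and -2.92 (-4.80 to -1.56). Col13a1, found at cell adhesions, had 133 CPM at E17.5 and 130 at E15.5 in subepithelial and 37.3 CPM at E15.5, 36.0 at E17.5 and 18.3 at P7 in mucosal fibroblasts. Over all fibroblasts Col23a1 and Col13a1 were lower at P7, with ratios of -1.33 and -1.09, and with equal weights of the mucosal, deep and Kcnn3 classes the ratios were -0.71 and -0.12. Col25a1 had 28.9 CPM at E15.5, 72.5 at E17.5 and 34.8 at P7 in Kcnn3 fibroblasts, and in glia 85.0 CPM at E15.5, 83.3 at E17.5 and 31.1 at P7. Interstitial cells of Cajal had 28.7 CPM at E15.5, 37.2 at E17.5 and 18.3 at P7, the last from 3 UMIs, and the Dlk1-Lsp1 class 20.9 CPM at E17.5 and 19.6 CPM at E15.5. It was the most abundant chain in P7 neuronal cells, with 45.2 CPM. Col17a1, a chain of epithelial hemidesmosomes in skin, reached at most 5.35 CPM in any class.

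The 6 other chains were low in most classes. Col8a1, a network-forming chain known from vessel walls, had 0.120 CPM at E15.5, 3.82 at E17.5 and 64.6 at P7 in deep fibroblasts, from 1, 42 and 97 UMIs, and 201 CPM (178 to 227) in P7 elastin-rich muscle. Visceral muscle had 4.47 CPM at E15.5, 29.0 at E17.5 and 2.03 at P7. Its partner Col8a2 rose to 10.7 CPM in deep fibroblasts at P7, against 4.64 CPM at E17.5. Col28a1 was highest in pericytes at every stage, with 31.2 CPM at E15.5, 65.0 at E17.5 and 75.2 at P7, although at P7 its interval overlapped that of glia, and deep fibroblasts had 8.18 CPM at E15.5, 3.91 at E17.5 and 3.33 at P7. Col26a1 had 5.78 CPM at E15.5, 4.998 at E17.5 and 1.33 at P7 in deep fibroblasts and was highest in interstitial cells of Cajal at P7, 244 CPM. Col7a1, which anchors epidermis to dermis, had 0.237 CPM at E15.5, 0.330 at E17.5 and 1.29 at P7 in epithelial cells and 1.52 CPM at E15.5, 1.08 at E17.5 and 2.12 at P7 in all fibroblasts. Col10a1, the chain of hypertrophic cartilage, was at most 0.703 CPM in any class.

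Ratios between chains of 1 collagen type were taken within the same cells of the same library, so that depth cancels, although they are ratios of captured 3′ ends and not of protein chains. Type I collagen is known to contain more Col1a1 than Col1a2 chains. In this 3′ count the ratio of Col1a1 to Col1a2 was 0.910 at E15.5, 0.968 at E17.5 and 0.795 at P7 in all fibroblasts. Subepithelial fibroblasts had 0.346 at E17.5 and 0.359 at E15.5, the lowest pair of values of any class. Visceral muscle had 3.88 at E15.5, 1.92 at E17.5 and 1.23 at P7, and the Dlk1-Lsp1 class, cells of the muscle gate with Dlk1 and Lsp1 that stayed under the Actg2 and Eln limits of the other muscle kinds, had 2.41 at E17.5 and 2.22 at E15.5. In visceral muscle the 3 intervals did not overlap, the ratio being 1.23 (1.05 to 1.44) at P7 and 3.88 (3.62 to 4.17) at E15.5. Pericytes had 0.977 at E15.5, 0.798 at E17.5 and 0.580 at P7. In visceral muscle, the Dlk1-Lsp1 class and pericytes neither chain exceeded the limit for RNA carried over from fibroblasts at any stage with values. That limit was 322.7% at E15.5 and 203.8% at E17.5 of the fibroblast level in the Dlk1-Lsp1 class, and 112.7% at E15.5 in pericytes. A chain could pass it there only above the fibroblast level itself, so in those cases the limit could not decide. The part of fibroblast RNA in all these ratios was not tested, and they are not assigned to those cells. In visceral muscle Col1a1 stood at 36.9%, 17.49% and 11.4% and Col1a2 at 8.64%, 8.81% and 7.38% of the fibroblast level in stage order.

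Col4a1 exceeded Col4a2 in every fibroblast, muscle, pericyte and glial class at every stage. The ratio was 2.28 at E15.5, 2.58 at E17.5 and 1.75 at P7 in all fibroblasts, 2.16 at E15.5, 2.20 at E17.5 and 1.49 at P7 in visceral muscle, and 2.43 at E15.5, 2.71 at E17.5 and 1.53 at P7 in pericytes. It was lower at P7 than at E17.5 in the mucosal, deep, Kcnn3 and adventitial fibroblasts, visceral muscle, pericytes and glia, and the intervals of the 2 stages overlapped in the adventitial class. In epithelium, whose Col4a1 and Col4a2 counts did not exceed carry-over, it was 2.56 at E15.5, 2.04 at E17.5 and 0.791 at P7. The ratio of Col5a1 to Col5a2 was 2.70 at E17.5 and 2.57 at E15.5 in subepithelial, 1.10 at E15.5, 1.12 at E17.5 and 0.952 at P7 in deep fibroblasts and 0.228 at E15.5, 0.532 at E17.5 and 0.651 at P7 in glia. Col6a1 to Col6a2 was the steadiest of these ratios in fibroblasts, 1.21 at E15.5, 1.18 at E17.5 and 1.35 at P7. Col4a5 to Col4a6 ranged over 3.91 to 6.27 in the 5 pairs of a named class and a stage with 20 or more UMIs of both.

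The long collagen VI chains changed their order. Col6a5 to Col6a4 was 0.0331 at E15.5, 0.643 at E17.5 and 3.69 at P7 in all fibroblasts and 0.0460 at E15.5, 0.849 at E17.5 and 3.11 at P7 in the mucosal class. In deep fibroblasts it was 9.21 at P7 and 0.868 at E17.5. Col6a4 thus outnumbered Col6a5 at E15.5 and E17.5 in the mucosal class, and Col6a5 outnumbered Col6a4 at P7. The E17.5 value of all fibroblasts was 0.447 without the chemokine-high cells. In subepithelial fibroblasts at E17.5 the ratio was 0.0708 (0.0603 to 0.0828). Col6a3 to Col6a1 was 0.312 at E15.5, 0.390 at E17.5 and 0.468 at P7 in all fibroblasts, and at P7 it was 2.37 (1.78 to 3.17) in pericytes and 2.11 (1.65 to 2.71) in elastin-rich muscle. In these P7 pericytes and elastin-rich muscle Col6a1 did not exceed the carry-over limit, at 7.71% and 4.79% of its fibroblast level. Col6a3 did, at 39.0% and 21.6%.

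**Figure D4:**
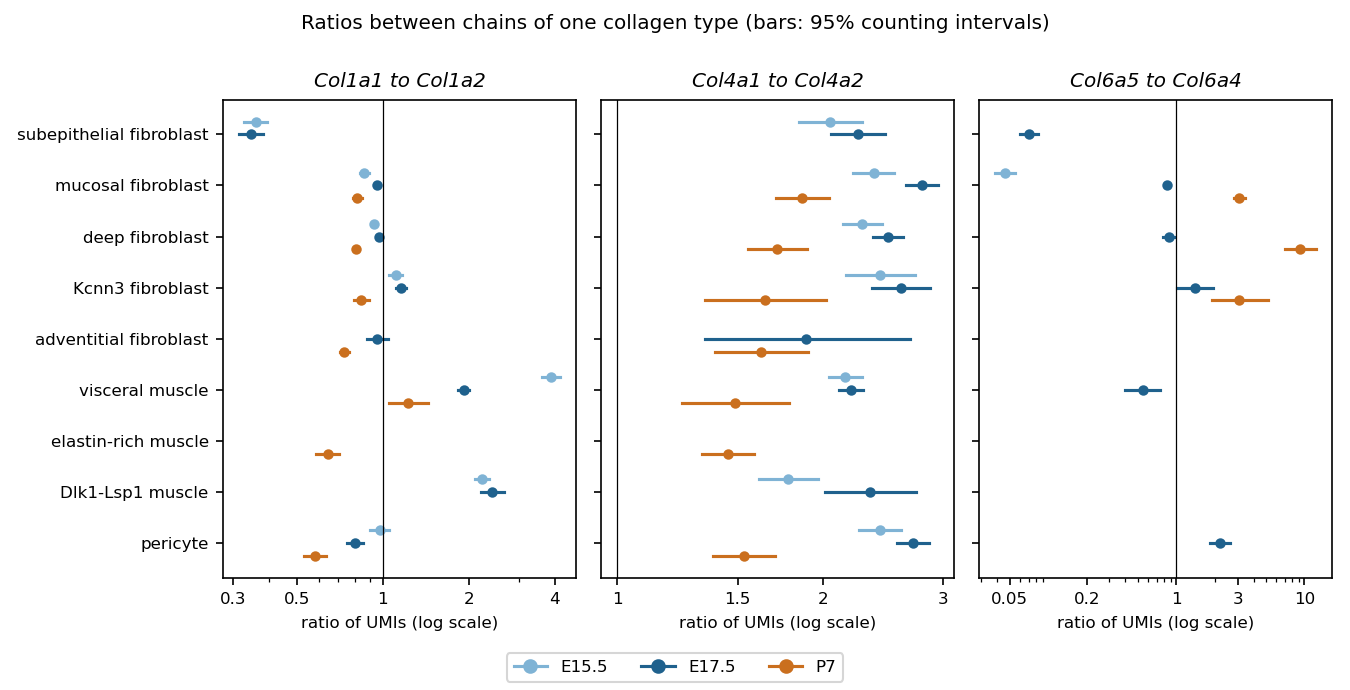
UMI ratio of 2 chains (x axis, log scale) by class (y axis) and stage (colours), with 95% counting intervals as bars and a line at 1, shown where both chains had 20 or more UMIs. Col1a1 to Col1a2 spans 0.346 to 3.88, the Col4a1 to Col4a2 points of the fibroblast, muscle and pericyte classes drawn all lie above 1, and Col6a5 to Col6a4 crosses 1 between the stages in mucosal and deep fibroblasts.

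Outside the fibroblasts, values were read against an estimate of RNA carried over from fibroblasts. It used Dcn, Lum, Ogn, Fbln1, Mfap4, Abi3bp and Tcf21 as a percent of their fibroblast level. These genes differed widely within a class, from 4.25% (Dcn) to 91.2% (Abi3bp) in visceral muscle at E15.5. In pericytes at that stage they ran from 11.9% (Ogn) to 61.3% (Fbln1). Expression of these genes by the cells themselves was not separated from carry-over. The median over these 7 genes was 12.3%, 8.37% and 4.50% in visceral muscle, 22.5%, 18.2% and 7.34% in pericytes, 0.539%, 0.468% and 0.385% in glia, and 1.12%, 1.23% and 0.1495% in epithelium, in stage order. A chain with at least 20 UMIs and more than 5 times that median was taken as above carry-over. Only chains with at least 20 UMIs in all fibroblasts were compared, 34 at E15.5, 35 at E17.5 and 30 at P7. In visceral muscle at E17.5 over E15.5, 6 of 26 chains were higher and 3 lower, against 5.36% and 6.92% of all genes, and at P7 over E17.5, with 68 cells at P7, 2 of 22 were higher and 5 lower, against 13.0% and 7.97%. Col1a2 rose in visceral muscle at the first step, with 298 CPM at E17.5 against 138 CPM at E15.5, while Col1a1 had 573 CPM at E17.5 and 537 CPM at E15.5. Both stayed within the carry-over limit, Col1a2 at 8.81% of its fibroblast level at E17.5 and 8.64% at E15.5, and Col1a2 over all fibroblasts had 3386 CPM at E17.5 and 1602 CPM at E15.5, so muscle RNA and fibroblast RNA cannot be told apart for this step. Col8a1 rose at the first step and fell at the second in this class, the second value resting on 1 UMI at P7. Col12a1 fell at the second step in visceral muscle, to 32.4 CPM at P7, against 99.3 CPM at E17.5. In the Dlk1-Lsp1 class, whose carry-over median was 40.8% at E17.5 and 64.5% at E15.5, 0 of 24 chains were higher and 0 lower at the first step, against 2.63% and 6.76% of all genes. Its most abundant chain was Col1a1 at E17.5, with 1387 CPM.

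In pericytes 4 of 24 chains were higher and 2 lower at E17.5 over E15.5, against 6.42% and 3.28% of all genes, and 3 of 24 were higher and 7 lower at P7 over E17.5, against 10.3% and 8.05%. The chains that fell at the second step included 4 of collagen VI. Col6a1 had 286 CPM at E15.5, 441 at E17.5 and 119 at P7 and Col6a2 250 CPM at E15.5, 374 at E17.5 and 61.8 at P7, and Col6a5 had 7.58 CPM at E15.5, 153 at E17.5 and 5.01 at P7. The median of the carry-over genes in pericytes was also lower at P7, as given above. None of these collagen VI levels exceeded the carry-over limit at E17.5, so fibroblast RNA and pericyte RNA cannot be told apart for them. Chemokine-high cells were 22 of 152 pericytes at P7, against 224 of 426 at E17.5. Col4a1 stood at 190% of its fibroblast level at P7 and 319% at E17.5, above the limit. At P7 the pericytes held 2 of 8 endothelial markers above 0, with a summed level of 301 CPM of which 1 gene gave 294, against 8 of 8 and 114 CPM at E17.5.

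In glia most chains counted were higher at P7. At that step 18 of 24 chains were higher than at E17.5 and 1 was lower, against 20.5% and 9.02% of all genes counted, and the median log2 ratio was 2.45 against 0.24. At the first step 8 of 24 were higher and 1 lower, against 7.24% and 1.12%. Col3a1 had 45.9 CPM at E15.5, 50.1 at E17.5 and 572 at P7, and Col4a1 had 159 CPM at E15.5, 275 at E17.5 and 560 at P7. Col12a1 had 9.66 CPM at E15.5, 57.5 at E17.5 and 448 at P7. Col15a1 had 180 CPM at P7 from 29 UMIs, against 2.56 CPM at E17.5 from 12 UMIs. Col11a1 had 55.1 CPM at E15.5, 42.2 at E17.5 and 149 at P7, and Col20a1 rose to 46 UMIs in 59 cells at P7. Dcn had 0 UMIs in the P7 glia, the carry-over median was 0.385% and Fbln1 was highest at 46.7% of its fibroblast level, while Col3a1 stood at 4.35% and Col12a1 at 228% of theirs. The P7 glia were shallow, with a median of 2586 UMIs per cell against 5454 at E17.5, and their leading genes held Apoe, a marker of the mucosal list. The part of depth and of carried-over RNA in these ratios was not tested.

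Epithelial cells held few collagen UMIs, and most were within the carry-over limit. Chains low in fibroblasts, such as Col7a1 and Col11a2 at P7, were not compared with it. Of the 34, 35 and 30 chains compared in stage order, 3 stood above the limit at E15.5, 3 at E17.5 and 6 at P7. Col27a1 and Col18a1 were above it at all 3 stages, Col27a1 with 22.6 CPM at E15.5, 7.92 at E17.5 and 5.17 at P7 and Col18a1 with 6.04 CPM at E15.5, 3.42 at E17.5 and 1.59 at P7. Col27a1 fell at the first step, its log2 ratio being -1.51 (-1.75 to -1.28). At E17.5 over E15.5, 2 of 25 chains were higher and 4 lower, against 7.41% and 5.73% of all genes. At P7 over E17.5, 19 of 28 chains were lower and 3 higher, against 8.86% and 13.4%, with a median of -1.90 against 0.07. The carry-over genes moved the same way, their median falling to 0.1495% of the fibroblast level at P7, against 1.23% at E17.5, and epithelial cells were 6001 of 8018 kept cells at P7, against 1498 of 11222 at E17.5. The part of carried-over RNA in these counts was not tested. Col3a1, the most abundant chain, had 39.9 CPM at E15.5, 60.0 at E17.5 and 22.4 at P7 there, at 1.36%, 1.22% and 0.170% of its fibroblast level. The 3 chains that were higher at P7 were Col8a1, with 1.41 CPM at P7 and 0.0825 CPM at E17.5, Col7a1 and Col11a2, the last with 0.322 CPM at P7 and 0.124 CPM at E17.5. Col6a5 rose in epithelium at the first step, to 4.86 CPM, against 0.339 CPM at E15.5, and stayed within the carry-over limit. The other chains that fell in epithelium at the first step were Col2a1, Col9a1 and Col9a3, which had 0, 0.165 and 0.330 CPM at E17.5, against 0.848, 0.712 and 1.19 CPM at E15.5.

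**Figure D5:**
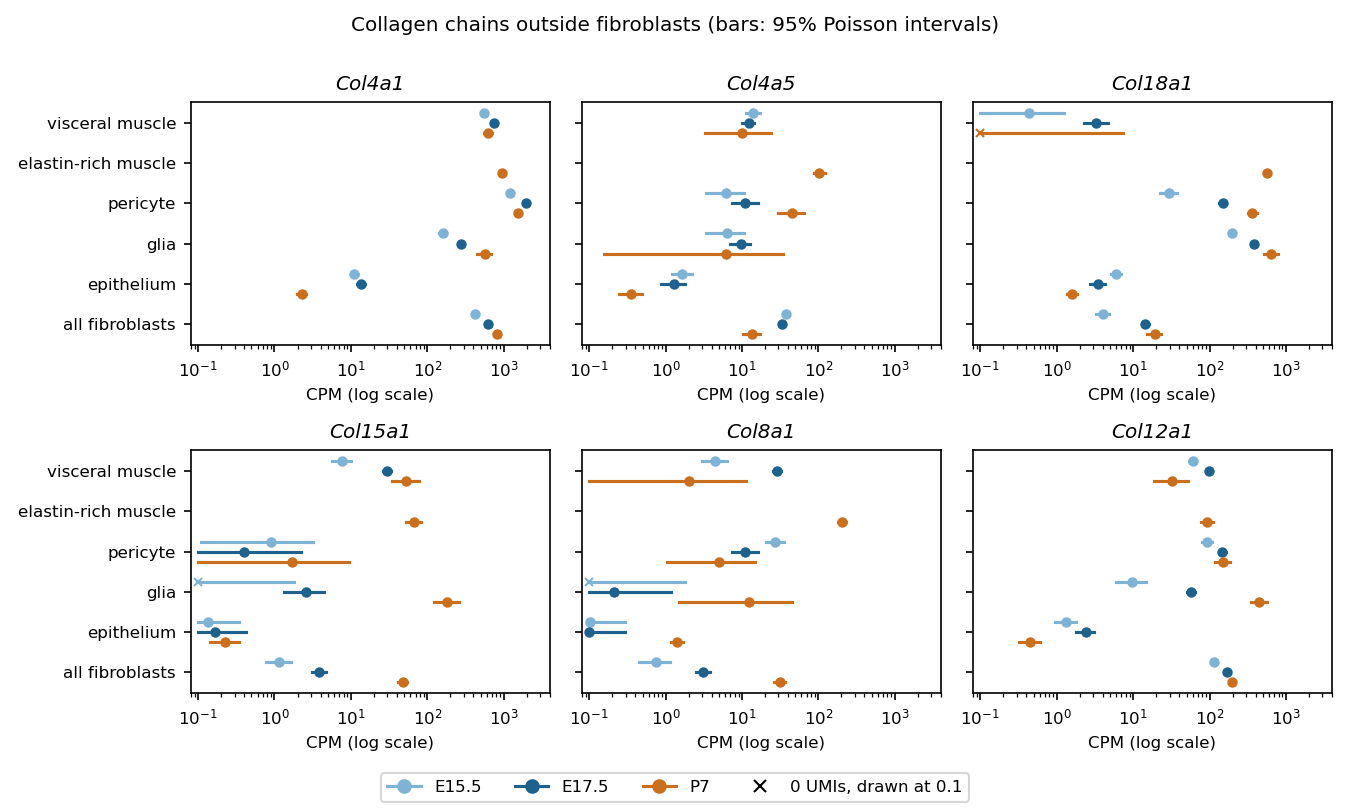
CPM on a log axis (x) of 6 chains in muscle kinds, pericytes, glia, epithelium and, for reference, all fibroblasts (y), by stage (colours), with 95% Poisson intervals as bars and crosses for 0 UMIs. Col18a1 in glia (641 CPM), elastin-rich muscle (558 CPM) and pericytes (363 CPM) lies above all fibroblasts (19.1 CPM) at P7.

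The enzymes and partners that make, trim, link, bind and degrade collagen were set beside the chains in all fibroblasts, from lists chosen by function. Of 24 genes for hydroxylation, folding and export, all 24 could be counted, and at E17.5 over E15.5 0 were higher and 0 lower, with a median log2 ratio of 0.00 against -0.09 over all genes counted. At P7 over E17.5 0 were higher and 1 was lower, with a median of 0.15 against 0.14. The collagen chaperone Serpinh1 had 1375 CPM at E15.5, 1163 at E17.5 and 1097 at P7, and the prolyl hydroxylase P4ha1 had 140 CPM at E15.5, 181 at E17.5 and 104 at P7. The gene that fell was the prolyl hydroxylase P3h2, with 12.6 CPM at E15.5, 9.79 at E17.5 and 2.76 at P7. The collagen share of fibroblast UMIs was thus higher at each later stage while Serpinh1 stayed within 2-fold.

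Of 7 crosslinking genes, all counted, 2 were higher at the first step, Lox and Loxl1, both lysyl oxidases, and 1 at the second, Loxl1, with 0 lower at either. Of all genes counted 8.02% were higher and 2.89% lower at the first step and 10.8% and 5.94% at the second. The medians of the 7 genes were 0.69 and 0.58, against -0.09 and 0.14 over all genes. Loxl1 had 28.8 CPM at E15.5, 64.2 at E17.5 and 247 at P7 and Lox had 108 CPM at E15.5, 232 at E17.5 and 132 at P7. In deep fibroblasts Lox fell at the second step, with 179 CPM at P7 against 415 CPM at E17.5. Of 10 procollagen processing genes 7 could be counted at the first step, with 0 higher and 0 lower, and 8 at the second, with 4 higher and 2 lower, against 10.8% and 5.94% of all genes, and a median of 1.08 against 0.14. Adamts2, which removes the amino-terminal propeptide, had 40.3 CPM at E15.5, 71.5 at E17.5 and 169 at P7, and Pcolce2, which aids removal of the carboxy-terminal one, had 3.34 CPM at E15.5, 3.29 at E17.5 and 13.2 at P7. The largest ratio was that of Mep1a, a brush border protease, with 0.371 CPM at E15.5, 0.411 at E17.5 and 4.88 at P7, and epithelial cells held it at 252 CPM at P7. The summed level of 6 epithelial genes in fibroblasts was 940 CPM at P7, against 132 CPM at E17.5. The lower processing genes were Tll1, with a log2 ratio of -3.02 from 1 UMI at P7, and Adamts3. Adventitial cells were 87 of 976 fibroblasts at P7 and 48 of 4807 at E17.5. The second-step median of the processing genes was 0.33 in mucosal and deep fibroblasts, from 5 genes each, against 0.17 and 0.08 over all genes. It was 1.80 in Kcnn3 and 2.32 in adventitial fibroblasts, from 3 and 4 genes, against 0.14 and 0.17. In mucosal fibroblasts Pcolce2 had 1.18 CPM at P7 and 3.45 CPM at E17.5, a log2 ratio of -1.55 (-4.68 to 0.47). The part of the class mix was not tested.

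Of 10 collagen receptors 7 could be counted and 0 were higher or lower at either step in all fibroblasts. In deep fibroblasts the integrin chain Itga2 was higher at P7, with 16.0 CPM against 2.27 CPM at E17.5, as was Itga1, with 133 CPM against 64.1 CPM. Of 14 degradation genes 11 could be counted, with 2 higher and 0 lower at the first step and 3 higher and 2 lower at the second, against 8.02% and 2.89%, and 10.8% and 5.94%, of all genes. Their medians were 0.51 and 0.51, against -0.09 and 0.14. The collagenolytic cathepsin Ctsk had 18.5 CPM at E15.5, 45.1 at E17.5 and 114 at P7 and was higher at both steps. At the second step the membrane metalloprotease Mmp16 had 15.8 CPM at E15.5, 22.5 at E17.5 and 89.3 at P7 and the inhibitor Timp2 had 120 CPM at E15.5, 167 at E17.5 and 394 at P7. Mmp9 was higher at the first and lower at the second step, with 0.297 CPM at E15.5, 2.28 at E17.5 and 0.636 at P7. Its log2 ratios were 2.94 (1.871 to 4.215) and -1.84 (-4.16 to -0.23), and the P7 value is the level of 3 UMIs.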

How the data were processed

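The deposited matrices hold whole-number UMI counts per gene and cell, named by gene symbol. Per the submitters' processing notes they come from Cell Ranger 7.2.0 with the mm10 (GRCm38) genome; no source used here states the authors' cell filters, annotation or strand setting. Nothing in the files is normalized. The 3 libraries held 8447, 11598 and 8391 cells with 93501273, 94023160 and 116038115 counts at E15.5, E17.5 and P7. The members of the collagen list, the gene lists and the gates were chosen with earlier results of these data known.

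Doublets were called with scrublet in scanpy 1.11.5 (expected rate 0.06) and 253, 376 and 373 cells were removed. Each cell was scored by the mean of its gate genes' levels per 10000 UMIs, each divided by its 0.9 quantile among cells with a UMI (or by 4, where higher) and capped at 1, and was assigned where the best score was at least 0.15 and led the next by 0.05. Gate genes are parts of fixed marker lists, but the scoring and its limits were set after values were seen. Muscle kinds were split at 5000 Actg2 CPM, 1000 Eln CPM and 1000 CPM of Dlk1 and Lsp1 summed. Cells within 0.05 of a score limit, or within 1.5 times of a muscle limit, count as near it. UMIs were summed per class and library, and classes under 30 cells got no value. Intervals are exact at 95%: Poisson for CPM, Clopper-Pearson for shares and conditional binomial for ratios. Intervals and the limits for a count of 0 (3 UMIs) cover counting error only.

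A gene was counted in a step with 20 UMIs in the library with more UMIs and called past 2-fold; a count of 0 was set to 3 UMIs and its ratio is a bound. The fixed plan had set counts of 1 and 2 to 3 UMIs as well, and that was run as an alternative. Named with values were chains at 100 CPM or more in a class, chains called in a fibroblast, muscle or epithelial class, and the highest chain of each class; the rest are given by range. Of the pathway genes outside the chains, called genes with the largest ratios were named by that rule; Serpinh1, P4ha1, and the other pathway genes named with values were chosen after their values were seen. Alternatives were clusters (Leiden, leidenalg 0.10.2, resolution 2, without collagen genes) in place of gates, stricter gates, no doublet removal, other scalings, minimums and folds, and leaving out Epcam-positive or chemokine-high cells. The counting and interval code was tested on simulated data. Analysis used python 3.11.15 with numpy 2.4.6, scipy 1.17.1, pandas 2.3.3 and matplotlib 3.10.9. Promoter windows are from RefSeq on GRCm38.p6, and gene positions from GENCODE on GRCm38.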

Additional observations from a re-analysis of the deposited data

Results flagged for a closer look

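With 1 library per stage, 11 chains and steps are listed because the chain passed 2-fold upward in one class and downward in another. The value given first is the log2 ratio in the class that was higher minus that in the class that was lower, and none of these differences was tested.

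At E17.5 over E15.5, Col8a1 differed by 6.29 between deep fibroblasts (4.99) and pericytes (-1.30), with 1 UMI behind the E15.5 value of the deep class. Col14a1 differed by 2.56 between glia (1.20) and subepithelial fibroblasts (-1.36). Col28a1 differed by 2.13 between pericytes (1.06) and deep fibroblasts (-1.07).

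At P7 over E17.5, Col8a1 differed by 7.92 between deep fibroblasts (4.08) and visceral muscle (-3.84), which had 1 UMI at P7. Col6a5 differed by at least 7.68 between adventitial fibroblasts (2.75, a bound from 0 UMIs at E17.5) and pericytes (-4.93). The pericytes had 5.01 CPM of Col6a5 at P7, the level of 3 UMIs. Col4a5 differed by 4.58 between pericytes (2.03) and mucosal fibroblasts (-2.55), and the mucosal ratio changed sign with classes from clusters. The other differences at this step had glia on the higher side, from 59 cells at P7. Col14a1 differed by 5.55 between glia (2.87) and mucosal fibroblasts (-2.68). Col6a1 differed by 5.33 between glia (3.44) and pericytes (-1.89), and Col6a2 by 4.79 between glia (2.20) and pericytes (-2.60). Col12a1 differed by 4.58 between glia (2.96) and visceral muscle (-1.62). Col11a1 differed by 4.50 between glia (1.82) and pericytes (-2.67), which had 1.67 CPM at P7, the level of 1 UMI. In these glia 3 of the 5 chains stood above fibroblast carry-over at P7. The difference was not tested for any of them.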

How the results depend on the processing

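No paired analysis was possible because each stage has 1 library, and no difference between stages has a replicate check. Of the 1393 recomputed ratios of called chains, 1323 stayed past 2-fold in the same direction, 66 did not, and 4 reversed. Of the 1323, 100 came from the minimum of 100 UMIs, which leaves a ratio unchanged by construction. A further 154 came from setting counts of 1 and 2 to 3 UMIs, which changes only ratios with such a count. The reversed ratios all came from classes built on clusters: Col6a1 in glia at E17.5 over E15.5 (-0.11), and at P7 over E17.5 Col4a5 (0.40) and Col4a6 (0.083) in mucosal fibroblasts and Col8a1 in pericytes (0.28). Of 320 recomputed counts of called chains, 274 stayed within 1.5 times. Equal weights of the mucosal, deep and Kcnn3 classes were an alternative chosen after seeing the data, as was the use of counts of 1 and 2 as observed. Setting them to 3 UMIs, the planned rule, moved no count by over 1.5 times.

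At E17.5 over E15.5 a 1.5-fold limit gave 16 chains higher in all fibroblasts, 15 higher and 1 lower in mucosal, and 13 higher and 4 lower in deep fibroblasts. A minimum of 100 UMIs gave 2 higher in mucosal, and 4 higher and 0 lower in deep fibroblasts, and no minimum gave 1 lower in all fibroblasts, 5 lower in deep fibroblasts and 5 lower in visceral muscle. Chains lower in mucosal fibroblasts numbered 3 with clusters and 1 without chemokine-high cells, and in deep fibroblasts 1 without Epcam-positive cells and 1 with median-ratio scaling. At P7 over E17.5 a 1.5-fold limit gave 14 higher in all fibroblasts, 12 in mucosal fibroblasts and 6 in visceral muscle. A minimum of 100 UMIs gave 3 higher in deep fibroblasts and 1 in visceral muscle, median-ratio scaling gave 3 higher in mucosal fibroblasts, and equal weights gave 11 higher and 4 lower in all fibroblasts. Where a limit or minimum was changed, the counts moved by construction. For the other settings the cause was not tested.

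The collagen share of all fibroblasts was, at E15.5, E17.5 and P7, 1.04%, 1.72% and 3.46% with clusters, 1.10%, 1.89% and 3.60% with a stricter gate, 1.11%, 1.93% and 3.72% over non-mitochondrial, non-haemoglobin UMIs, and 1.07%, 1.86% and 3.43% as a mean over cells. It was 1.07%, 1.83% and 3.61% without Epcam-positive cells and 1.03%, 1.62% and 3.11% with equal weights. Without doublet removal it was 3.55% at P7 and 1.81% at E17.5, and without chemokine-high cells 3.64% at P7 and 1.07% at E15.5. The order of the stages was the same in each of these. Of 189 recomputed collagen shares, 4 moved by over 1.5 times. Without doublet removal epithelium held 0.0288%, 0.0563% and 0.0175% over the 3 stages, and with clusters P7 Kcnn3 fibroblasts held 1.83%. With clusters E17.5 pericytes, at 1.08%, also held more than E17.5 Kcnn3 fibroblasts, at 0.723%. Of 2100 recomputed levels of chains at 100 CPM or more, 13 moved by over 1.5 times, 11 of them with clusters. At P7 these included Col14a1 (175 CPM), Col1a2 (2875 CPM) and Col1a1 (2925 CPM) in Kcnn3 fibroblasts, and without Epcam-positive cells Col1a2 in glia was 31.4 CPM. In all fibroblasts Col1a1 to Col1a2 was 0.883 at E15.5 as a mean over cells, and 0.958, 0.998 and 0.819 over the 3 stages with equal weights. Col4a1 to Col4a2 was 2.50 at E17.5 without chemokine-high cells. Col6a5 to Col6a4 was 0.585 at E17.5 and 0.0289 at E15.5 as a mean over cells, 0.863 at E17.5 and 0.0455 at E15.5 with equal weights, and at E17.5 0.608 with a stricter gate and 0.447 without chemokine-high cells. Depth limits the small P7 classes most: 59 glial, 68 visceral muscle and 87 adventitial cells.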
